A study of Mus musculus with 2 samples.

Results

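Immediate-early genes were followed in single dissociated cells of the neonatal mouse pituitary. These 10 members, *Fos*, *Fosb*, *Jun*, *Junb*, *Jund*, *Egr1*, *Atf3*, *Ier2*, *Ier3* and *Zfp36*, were taken by their symbol from the 31055 features of the count tables, and each matched exactly 1 feature. The data are 2 droplet libraries of the SOX9iresGFP+ fraction at postnatal day 3 (P3), 1 from males and 1 from females. All animals were Sox9iresGFP/+, the labels name no treatment, and each library pooled the cells of 3 pituitaries, which were dissociated and then sorted for GFP. The temperature and length of the dissociation are not given in the sources used here. The reporter places GFP under the *Sox9* gene, and since GFP outlasts SOX9 the fraction holds SOX9+ stem cells (SCs) together with cells that have recently left that state. With 1 library per sex there is no replicate check on any difference, so no p-value is given, and all intervals cover counting error only. No undissociated tissue was measured, so that a response to dissociation and a level already present in the gland cannot be told apart, and only levels are compared.

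Immediate-early genes are transcribed within minutes of a growth factor, calcium or stress signal, without the need for new protein, and their mRNAs are short-lived. Most encode transcription factors. FOS and JUN proteins pair through leucine zippers to form AP-1, and serum response factor with its ELK partners, or CREB, commonly switches their promoters on. Enzymatic dissociation of a tissue is a well-known trigger, and pituitary endocrine cells also use the same genes downstream of hypothalamic hormones, as with EGR1 at the luteinising hormone beta gene of gonadotrophs.

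*Fos* and *Jun* gave the most abundant member mRNA and its main AP-1 partner. Some of the sites through which such signals act lie close to the transcription start, so the start-site proximal promoters of both genes are shown. Each is the 250 bases upstream of the RefSeq start (GRCm38.p6), printed 5′ to 3′ on the gene's own strand. Capitals mark a cyclic AMP response element core (TGACGT) in *Fos*, 66 to 61 bases before the start, and a site of the form TGACNTCA in *Jun*, 45 to 38 bases before it. The *Fos* stretch is chr12:85473640-85473889 on the plus strand and the *Jun* stretch is chr4:95052223-95052472 on the minus strand.
Fos: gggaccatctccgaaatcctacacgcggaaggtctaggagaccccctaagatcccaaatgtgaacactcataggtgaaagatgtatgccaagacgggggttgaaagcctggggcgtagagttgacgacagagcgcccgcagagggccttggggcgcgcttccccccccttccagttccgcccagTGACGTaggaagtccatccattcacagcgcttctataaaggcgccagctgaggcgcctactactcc
Jun: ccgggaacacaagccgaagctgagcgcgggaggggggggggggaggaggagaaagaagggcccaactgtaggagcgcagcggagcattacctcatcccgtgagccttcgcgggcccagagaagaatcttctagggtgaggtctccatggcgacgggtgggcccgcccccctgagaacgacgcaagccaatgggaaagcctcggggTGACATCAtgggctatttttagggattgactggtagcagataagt

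RefSeq windows from 250 bases before to 50 after the start were found for 8 of the 10 members, and *Egr1* and *Ier2* had none. These starts were not always those of the GENCODE vM21 gene. The upstream bases of *Atf3* (chr1:191183334-191183583) and *Zfp36* (chr7:28379229-28379478) lay inside the gene. Those of *Jund* (chr8:70697489-70697738) ended before its gene, which begins at 70698949. Both strands were searched. TGACGT was present in the windows of *Fos* and *Atf3* and in 7.51% of all 32851 windows, and TGACNTCA was present in *Jun* alone and in 8.83% of all windows. A CArG box, the serum response element core, was found in *Zfp36* alone, 58 to 49 bases before its start, against 1.63% of all windows. TATAAA was found in *Fos*, 33 to 28 bases before the start, and in *Junb*, where it began at the start itself, against 13.6%. TGANTCA, the AP-1 site itself, was found in none of the 8 members against 7.81%. A match or its absence describes the letters of the window only, and sites further upstream were not searched.

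The libraries comprised 10569 male and 5796 female barcodes, of which 10410 and 5711 were kept after the filters on genes and mitochondrial share. They had medians of 8902.5 and 9789 UMIs (unique molecular identifiers, each standing for 1 captured mRNA). Only 19 barcodes occurred in both libraries. Cells were placed in 4 classes by raw UMIs of marker genes. Stem barcodes (1936 male and 1948 female) had *Sox2* and *Sox9*. Differentiating ones (1217 and 828) had *Lef1* and at least 3 UMIs over 5 progenitor genes, a list that includes *Lef1* itself. Endocrine ones (1417 and 405) had *Pou1f1* or the hormone and lineage genes of gonadotrophs or melanotrophs. Mesenchymal ones (645 and 316) had *Dcn*, collagen and related genes. A further 269 and 66 were mixed, and 4926 and 2148 reached no class. The latter had medians of 2030 and 8394 UMIs, so the male classes leave out many shallow barcodes. Summed members were at 11049 and 12432 CPM (the usual scaling to total UMIs, in which 10000 CPM is 1% of a group's UMIs) in these unclassed barcodes, between the stem class and the rest.

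Genes not used to assign the classes followed their names, with exceptions. *Hes1*, a Notch target, was at 912 CPM in male and 1687 CPM in female stem barcodes, and at 81.1 and 134 CPM in differentiating ones. *Mycl* was highest in the differentiating class (369 and 308 CPM) and *Chga* in the endocrine class (856 and 775 CPM). *S100b*, listed as a stem marker, was near 0 in stem barcodes (0.492 and 0.265 CPM) and higher in mesenchymal ones (15.9 and 19.9 CPM). Of 4 endothelial markers, *Emcn* (191 and 208 CPM) and *Cdh5* (30.7 and 43.8 CPM) were present in the mesenchymal class, while *Pecam1* and *Cldn5* stayed at or below 1.10 CPM there. Summed over the 4 markers they were at 223 and 254 CPM in mesenchymal barcodes and at 2.22 CPM or less in the other classes, and their part in the mesenchymal values was not tested. Mural cell markers behaved alike, led by *Pdgfrb*, with sums of 291 and 215 CPM in mesenchymal barcodes and at most 3.84 CPM in the other classes, against 39.4 and 15.7 CPM in the unclassed barcodes. The immune marker *Ptprc* had no UMI in any of the 4 classes, and the immune, erythroid and pituicyte lists summed to at most 4.05, 1.94 and 4.72 CPM.

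The members together made up 1.01% of all male and 1.18% of all female UMIs, and stem barcodes carried the most. Their summed level was 13726 (13685 to 13768) CPM in male stem barcodes, 9568 (9485 to 9651) in mesenchymal, 8017 (7975 to 8058) in differentiating and 6034 (6001 to 6068) in endocrine barcodes, with 95% Poisson intervals in parentheses. In the female library the same order held, at 13782 (13734 to 13830.3), 9674 (9557 to 9791), 9389.5 (9333 to 9446) and 7757 (7686 to 7829) CPM. No intervals of neighbouring classes overlapped. Relative to stem barcodes the summed level was 0.440 (0.436 to 0.443) in male and 0.563 (0.556 to 0.570) in female endocrine barcodes. In differentiating barcodes it was 0.584 (0.579 to 0.589) and 0.681 (0.675 to 0.688), and in mesenchymal ones 0.697 (0.689 to 0.705) and 0.702 (0.691 to 0.713). The order of mesenchymal and differentiating barcodes was narrow in the female library, at a ratio of 1.03 (1.01 to 1.05), and it depended on sequencing depth, as described further on.

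Single barcodes spread widely within each class. The median share of a barcode's UMIs that came from the members was 1.41% in male and 1.41% in female stem barcodes, with the 10th to 90th percentile from 0.626% to 2.26% and from 0.792% to 2.03%. Differentiating barcodes had medians of 0.730% and 0.913%, and endocrine barcodes of 0.524% and 0.762%. Mesenchymal barcodes had medians of 0.939% and 1.03%, with a range as broad as 0.141% to 2.05% and 0.161% to 2.04%. A share over 1% was found in 74.4% of male and 80.8% of female stem barcodes, against 16.3% and 32.8% of endocrine ones. Shares under 0.25% were rare in stem barcodes (3.56% and 1.54%) and more frequent in mesenchymal ones (18.0% and 15.5%).

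**Figure D1:**
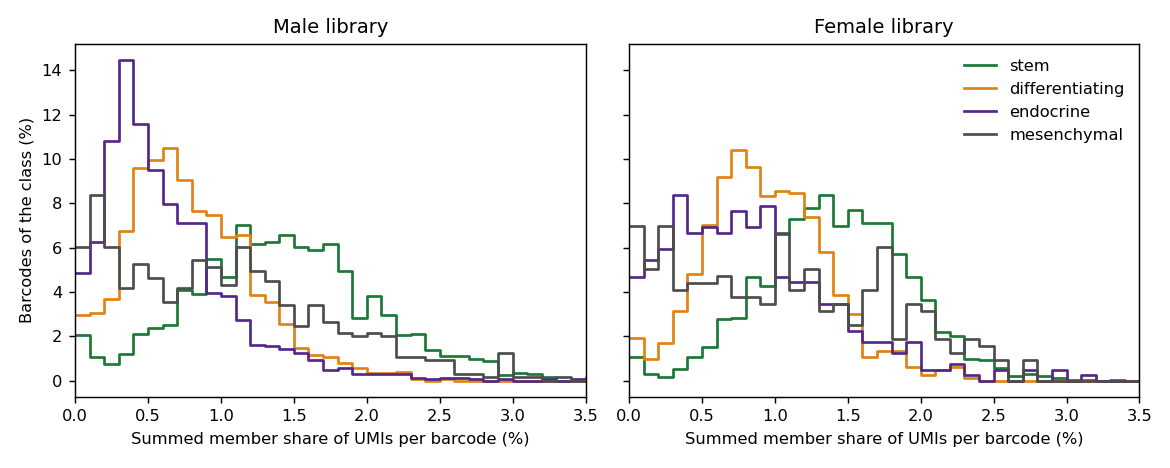
Share of each barcode's UMIs taken by the 10 members (x axis, percent, bins of 0.1) against the percentage of barcodes of each class (y axis), for the male and the female library. Stem barcodes peak well to the right of endocrine and differentiating ones (medians 1.41% and 1.41% against 0.524% and 0.762% in endocrine barcodes), and mesenchymal barcodes spread from near 0 to beyond 2%.

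*Fos*, whose protein is the inducible partner in AP-1, was the most abundant member in every class and took 33.4% of the member UMIs in male and 32.6% in female stem barcodes. Since UMIs were counted at the 3′ end, these levels do not scale with transcript length. *Fos* (chr12:85473890-85477273 in mm10, GENCODE vM21, as for all members) was at 4581 CPM in stem, 2635 in differentiating, 1949 in endocrine and 2843 in mesenchymal barcodes of the male library. The female values were 4493, 3208, 2545 and 3012 CPM in the same order. Stem barcodes were thus 2.35-fold (2.32 to 2.39) above endocrine ones in male and 1.77-fold (1.73 to 1.80) in female barcodes, and mesenchymal and differentiating barcodes lay between them.

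*Fosb* (chr7:19302696-19310051), its close relative, was less abundant and its gap between stem and endocrine barcodes was wider. It was at 335 CPM in stem, 172 in differentiating, 81.5 in endocrine and 163 in mesenchymal barcodes of the male library, and at 412, 279.7, 157 and 199 CPM in the female library. Endocrine barcodes had the lowest level in both libraries, 4.11-fold (3.84 to 4.39) and 2.63-fold (2.41 to 2.86) below stem barcodes.

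The 3 JUN genes, whose proteins pair with each other or with FOS proteins, did not share a pattern. *Jun* (chr4:95049034-95052222) was at 2156 CPM in stem, 725 in differentiating, 538 in endocrine and 1719.7 in mesenchymal barcodes of the male library and at 2465, 981, 868 and 1868 CPM in the female one. Its level was high in stem and mesenchymal barcodes, where the mesenchymal to stem ratio was 0.798 (0.776 to 0.820) and 0.758 (0.731 to 0.785), and low in differentiating and endocrine ones, where the ratios to stem were 0.336 (0.328 to 0.345) and 0.398 (0.387 to 0.409), and 0.25 (0.243 to 0.256) and 0.352 (0.339 to 0.365). *Junb* (chr8:84974484-84978718) was at 1082 CPM in stem, 394 in differentiating, 606 in endocrine and 856 in mesenchymal barcodes of the male library and at 1143, 497, 841 and 721 CPM in the female one. Unlike the summed members, *Junb* was lowest in differentiating barcodes and not in endocrine ones, in both libraries. *Jund* (chr8:70698949-70700616), the JUN gene that many resting cells also express, was at 1539 CPM in stem, 1084 in differentiating, 917 in endocrine and 1975 in mesenchymal barcodes of the male library and at 1319, 1055, 865 and 1591 CPM in the female one. These 3 genes overlap an annotated gene on the opposite strand (*Junos*, *Prdx2* and *Gm11175*), and Cell Ranger counts reads in the sense of the gene. *Jund* was highest in mesenchymal barcodes, at 1.28 (1.25 to 1.32) and 1.21 (1.16 to 1.26) times the stem level.

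*Egr1*, a zinc-finger transcription factor, varied less between the classes of the male library than any other member that was highest in stem barcodes. It was at 1395 CPM in stem, 1003 in differentiating, 691 in endocrine and 795 in mesenchymal barcodes of that library and at 1420.3, 1139.8, 847 and 880.3 CPM in the female one. Stem and differentiating barcodes differed by 1.39-fold (1.36 to 1.42) and 1.25-fold (1.21 to 1.28).

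*Atf3* (chr1:191170296-191218039), a stress-induced leucine zipper factor, was far lower in mesenchymal barcodes than in the other classes. It was at 373 CPM in stem, 253 in differentiating, 106 in endocrine and 20.3 in mesenchymal barcodes of the male library and at 488, 361, 188 and 23.6 CPM in the female one. Stem barcodes exceeded mesenchymal ones 18.3-fold (14.9 to 22.7) in male and 20.7-fold (15.9 to 27.4) in female barcodes. In barcodes thinned to 5000 UMIs, an *Atf3* UMI was found in 46.6% (44.3 to 48.9) of male and 54.6% (52.4 to 56.9) of female stem barcodes, but in 4.55% (2.90 to 6.74) and 5.24% (2.96 to 8.50) of mesenchymal ones (exact binomial 95% intervals). Without thinning the shares were 57.0% and 62.7% in stem, and 8.84% and 6.65% in mesenchymal barcodes.

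*Ier3* (chr17:35821684-35822923) showed the opposite pattern. This gene encodes a small protein that is induced by stress and modulates apoptosis and ERK signalling. It was at 26.0 CPM in stem, 4.83 in differentiating, 6.52 in endocrine and 296 in mesenchymal barcodes of the male library and at 29.5, 5.83, 9.94 and 395 CPM in the female one. Mesenchymal barcodes were at 11.4 (10.1 to 12.8) and 13.4 (11.7 to 15.4) times the stem level. A UMI of *Ier3* was found in 54.0% (49.5 to 58.4) and 66.1% (60.3 to 71.6) of thinned mesenchymal barcodes, in 10.1% and 12.5% of stem ones and in 1.87% and 1.82% of differentiating ones. The corresponding shares without thinning were 59.2% and 74.1%, 23.8% and 20.9%, and 5.18% and 5.56%. The median numbers of UMIs before thinning were 7579 and 7729.5 in mesenchymal, 11757 and 9924 in stem, and 13942 and 12719.5 in differentiating barcodes. Shares at the level of the differentiating class, the lowest of the 4, cannot be told apart from free RNA.

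*Ier2* (chr8:84661331-84662852), which encodes a nuclear protein of the immediate-early response, was the member that stayed highest in differentiating barcodes relative to stem ones. It was at 1956 CPM in stem, 1667 in differentiating, 1062 in endocrine and 766 in mesenchymal barcodes of the male library and at 1699, 1738, 1299 and 769.9 CPM in the female one. The differentiating to stem ratio was 0.852 (0.836 to 0.869) in male and 1.02 (0.999 to 1.05) in female barcodes, so that the 2 classes were indistinguishable by counting error in the latter. Mesenchymal barcodes had the lowest level, at 0.392 (0.377 to 0.407) and 0.453 (0.430 to 0.478) of stem.

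*Zfp36* (chr7:28376784-28380253) encodes tristetraprolin, which binds AU-rich elements and promotes the decay of mRNAs. Its level was 284 CPM in stem, 79.2 in differentiating, 77.7 in endocrine and 133 in mesenchymal barcodes of the male library and 312, 124, 136 and 214 CPM in the female one. Stem barcodes exceeded differentiating ones 3.59-fold (3.34 to 3.86) and 2.52-fold (2.33 to 2.72), a larger gap than that of *Fos*.

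**Figure D2:**
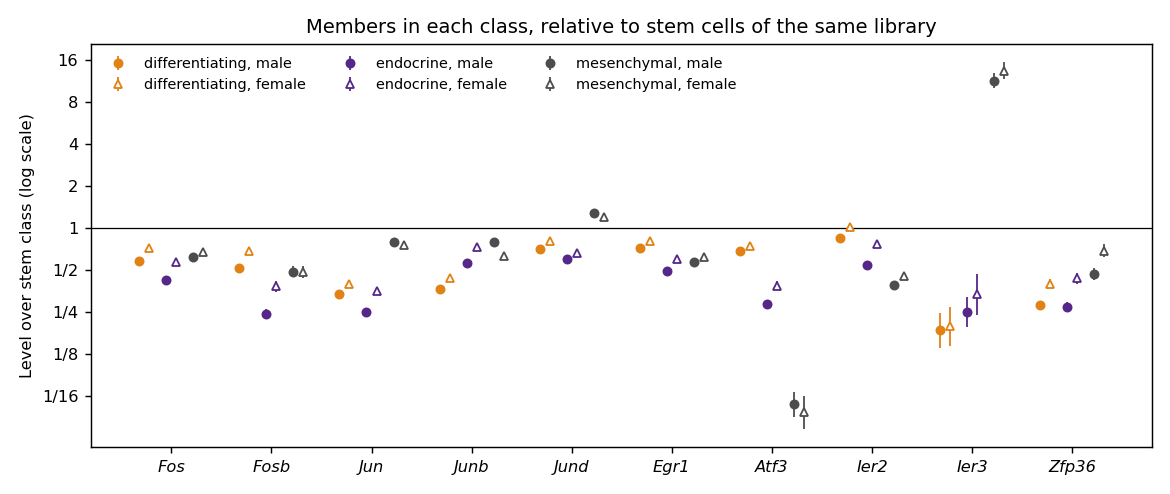
Level of each member in differentiating, endocrine and mesenchymal barcodes divided by its level in stem barcodes of the same library (y axis, log scale, 1 is equal), with filled circles for the male and open triangles for the female library and bars for the limits set by counting error. Most points lie below 1, with *Ier3* (11.4 and 13.4) and *Jund* above it and *Atf3* (0.0545 and 0.0482) far below it in mesenchymal barcodes.

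Stem barcodes had the highest level of the 4 classes for 8 of the 10 members in male and for 7 in female barcodes. The exceptions were *Jund* and *Ier3*, highest in mesenchymal barcodes of both libraries, and *Ier2*, highest in differentiating barcodes of the female library by less than the counting error. Endocrine barcodes were lowest for 6 and 5 members. A difference of at least 2-fold in both libraries was counted against all genes with at least 20 CPM in 1 of the compared classes. Between differentiating and stem barcodes, 4 members (*Jun*, *Junb*, *Ier3* and *Zfp36*) were lower by that margin and none was higher, against 11.7% lower and 4.44% higher among 6391 genes. Between endocrine and stem barcodes, 5 members (*Fosb*, *Jun*, *Atf3*, *Ier3* and *Zfp36*) were lower and none was higher, against 11.6% and 7.38% of 6663 genes. In mesenchymal barcodes 3 members (*Fosb*, *Atf3* and *Ier2*) were lower and 1 (*Ier3*) was higher, against 11.1% and 11.8% of 6848 genes. The median ratio of the members to stem was 0.545 and 0.696 in male and female differentiating, 0.355 and 0.501 in endocrine, and 0.595 and 0.650 in mesenchymal barcodes. Over all genes tested these medians lay between 0.956 and 1.02.

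Nearly every barcode held a UMI of some member. After thinning to 5000 UMIs, at least 1 UMI of any member was found in 99.9% of male and 99.9% of female stem barcodes and in no less than 99.0% of any other class. *Fos* alone was found in 97.1% and 98.7% of stem barcodes and in 85.0% and 88.5% of mesenchymal ones, the lowest class. What differed was how many members were found together. At least 8 of the 10 were found in 58.6% (56.3 to 60.9) and 69.8% (67.7 to 71.9) of stem, 33.0% and 45.1% of mesenchymal, 23.2% and 38.3% of differentiating and 13.2% and 31.2% of endocrine barcodes. Barcodes with fewer than 5000 UMIs were left out, 93 and 30 of them stem, 139 and 30 mesenchymal, 41 and 3 differentiating, and 222 and 7 endocrine. Free RNA differed between the libraries, as *Pomc*, the melanotroph and corticotroph hormone precursor, had a UMI in 80.5% of male and 33.3% of female stem barcodes without thinning. The members' own level in free RNA was not analysed here.

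Within the endocrine class, the members were higher in *Pou1f1* barcodes, which include the precursors of somatotrophs, lactotrophs and thyrotrophs, than in gonadotrophs or melanotrophs. The summed level was 7527 (7473 to 7581) CPM in 679 male and 9060.4 (8961 to 9160.3) CPM in 260 female *Pou1f1* barcodes. Gonadotroph barcodes (426 and 38) were at 5010.2 (4956 to 5065) and 5242 (5054 to 5435) CPM, and melanotroph barcodes (312 and 107) at 4257 (4197 to 4317) and 5941 (5827 to 6056) CPM. The melanotroph rule (*Pomc* with at least 1 UMI of *Pcsk2*, *Pax7* or *Tbx19*) could also admit corticotrophs, which had no rule of their own. Melanotroph barcodes held 254139 CPM of *Pomc* in male and 129346 CPM in female barcodes, and such a share lowers those of all other genes. Their *Fos* level of 1701 and 2201 CPM was above that of gonadotrophs, at 1358 and 1535 CPM, and their *Jun* level of 226 and 408 CPM was below the gonadotroph level of 544 and 575 CPM. *Egr1* was at 626 and 728 CPM in gonadotrophs, at 849 and 995 CPM in *Pou1f1* barcodes and at 443 and 587 CPM in melanotrophs, so that *Egr1* was not highest in gonadotrophs. *Jund* was at 1103 and 919 CPM in gonadotrophs, 924 and 961 CPM in *Pou1f1* barcodes and 639.8 and 655 CPM in melanotrophs. *Hes1*, high in stem barcodes, was at 121 and 227 CPM in *Pou1f1* barcodes. It was at 41.6 and 0 CPM in gonadotrophs and at 25.4 and 30.8 CPM in melanotrophs. The part of stem-like RNA in the higher member level of *Pou1f1* barcodes was not tested.

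Stem barcodes with at least 2 UMIs of *Ednrb*, an endothelin receptor, had more of the members than those with at least 2 UMIs of *Aldh1a2*, a retinoic acid synthesis enzyme, and no *Ednrb*. The summed level was 15011 and 14418 CPM in *Ednrb* barcodes (480 male and 794 female), and 12918 and 12867 CPM in *Aldh1a2* barcodes (899 and 630), a ratio of 1.16 (1.15 to 1.17) and 1.12 (1.11 to 1.13). *Atf3* had the widest gap, at 549.9 and 607 CPM against 258 and 359.9 CPM. *Ier2* had the reverse order, at 1719.7 and 1527 CPM against 2105 and 1844 CPM. For *Ier3* and *Zfp36* the interval of the ratio held equality in both libraries.

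The mesenchymal class was a mixture of barcodes with very different levels. A split by *Tcf21* and *Mfap5*, both fibroblast genes, was chosen after this spread was seen. Barcodes with more *Tcf21* than *Mfap5* UMIs (445 male and 212 female) had 11292 (11186 to 11399) and 12370.5 (12201 to 12542) CPM of summed members. Those with more *Mfap5* than *Tcf21* (111 and 79) had 4157 (4043 to 4273) and 5065 (4919 to 5215) CPM, a ratio of 0.368 (0.355 to 0.382) and 0.409 (0.392 to 0.427). Of the *Mfap5* barcodes, 53.2% and 40.5% had a member share under 0.25%, against 10.8% and 6.13% of the *Tcf21* barcodes. All members but *Atf3* were lower beyond counting error in *Mfap5* barcodes of both libraries, against 5.38% of 6247 genes, a criterion that abundant genes meet more readily. *Fos* was at 999.8 and 1381 CPM in *Mfap5* barcodes against 3428 and 3979 CPM, and *Jund* was closer, at 1196 and 1062 CPM against 2256 and 1929 CPM. *Ier3* was also lower in *Mfap5* barcodes, at 109 and 219.7 CPM against 369 and 497 CPM, yet remained above every other class. *Mfap5* barcodes were deeper (medians of 9843 and 10505 UMIs against 7651 and 7158), and at 10000 to 20000 UMIs the gap was still 4321 against 10379 CPM in male and 5096 against 9383 CPM in female barcodes.

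**Figure D3:**
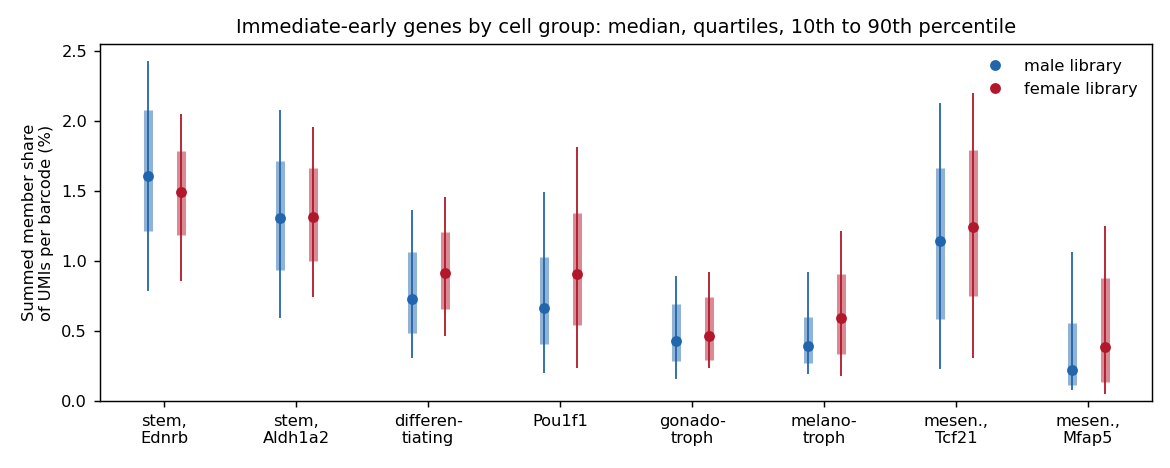
Share of each barcode's UMIs taken by the 10 members (y axis, percent) in groups within the stem, endocrine and mesenchymal classes and in the differentiating class, for the male (blue) and female (red) library. Points are medians, thick bars the quartiles and thin lines the 10th to 90th percentile, and the *Mfap5* group (medians 0.222% and 0.385%) lies far below the *Tcf21* group (1.14% and 1.24%).

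Depth moved with the summed level, but stem barcodes had the highest value at every depth. Within bins of UMIs per barcode, stem barcodes were highest in 9 of 9 bins among the classes with at least 20 barcodes there. At 2000 to 5000 UMIs of the female library the lead over mesenchymal barcodes was less than the counting error. Their level was 16046 and 15114 CPM at 5000 to 10000 UMIs, and 13153 and 12870.1 CPM from 20000 UMIs. The level in mesenchymal barcodes was lower with greater depth, from 12394 and 15583 CPM at 2000 to 5000 UMIs to 8565 and 7017 CPM at 10000 to 20000. That in female endocrine barcodes ranged from 12230.3 CPM at 5000 to 10000 UMIs to 5789.6 CPM from 20000. The order of the other classes was not fixed, and differentiating barcodes exceeded mesenchymal ones from 20000 UMIs in the male library (9062 against 7291 CPM) and at 10000 to 20000 UMIs in the female library (8914 against 7017 CPM).

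**Figure D4:**
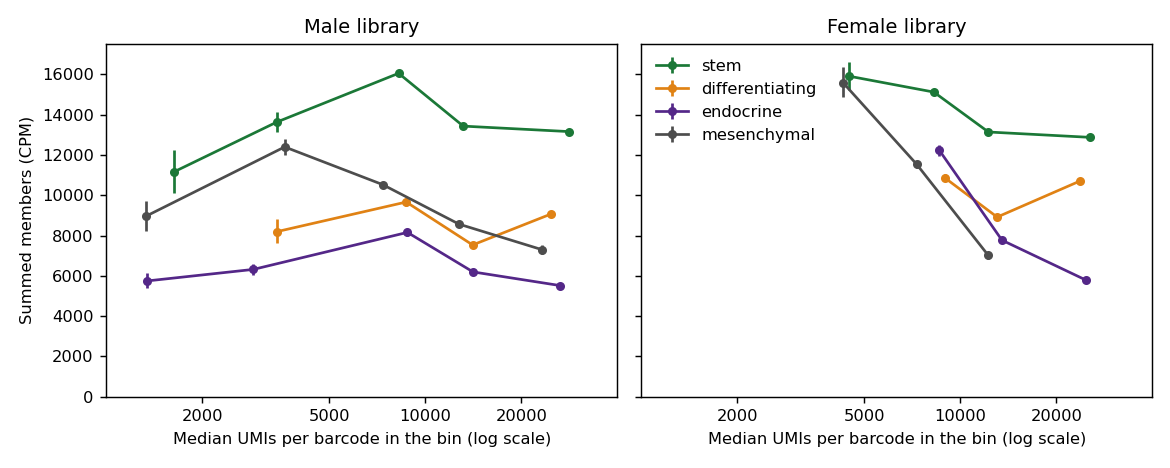
Summed level of the 10 members (y axis, CPM) against the median number of UMIs per barcode in each depth bin (x axis, log scale), by class and library, with bars for Poisson 95% intervals. The stem line runs above the others in both libraries, from 11148 to 16046 CPM in male and from 12870.1 to 15906 CPM in female barcodes, while the lines of the other classes cross.

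Mitochondrial share, often read as a sign of cell damage, moved with the members in different directions by class. When each class was divided into 3 equal parts by this share, the summed level in stem barcodes was 12965 CPM in the lowest and 14691 CPM in the highest part of the male library, and 13194 and 14036 CPM in the female library. In mesenchymal barcodes it was 10727 and 7263 CPM in male and 13086 and 7095 CPM in female barcodes. The middle part was the highest in female stem (14186 CPM) and male mesenchymal barcodes (10904 CPM). Mesenchymal barcodes with more *Mfap5* had the higher median mitochondrial share, at 2.53% and 3.08% against 1.94% and 2.34% with more *Tcf21*. The parts of cell damage and of this makeup in the stem and mesenchymal differences were not tested. Stem barcodes exceeded mesenchymal ones in each of the 3 parts of both libraries, by less than the counting error in the lowest part of the female library.

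Taken whole, male and female stem barcodes had summed levels within counting error of each other, with a male to female ratio of 0.996 (0.989 to 1.003). Both parts of the class were higher in the male library, at 1.03 (1.02 to 1.04) in barcodes with at least 2 of 8 cycling genes (682 male and 416 female) and 1.04 (1.03 to 1.05) in the others (1254 and 1532), and the libraries differed in the share of the former. The ratio was 0.854 (0.844 to 0.863) in differentiating and 0.778 (0.767 to 0.789) in endocrine barcodes. It was 0.989 (0.969 to 1.01) in mesenchymal barcodes taken whole, but 0.913 (0.892 to 0.934) in the *Tcf21* and 0.821 (0.775 to 0.869) in the *Mfap5* barcodes among them and 1.21 (1.11 to 1.32) in those with equal numbers.

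No member differed by 2-fold between male and female stem barcodes, against 0.396% of 6316 genes higher and 0.269% lower in the male library. By counting error alone 5 members were higher in the female and 3 in the male library, and the interval held equality for 2. Over all genes 18.2% were higher in the female and 27.9% in the male library by the same criterion, which abundant genes such as most members meet more readily. *Jund* had the largest stem ratio of male to female, at 1.17 (1.14 to 1.19), and *Atf3* the smallest, at 0.764 (0.736 to 0.793). In differentiating barcodes 8 members were higher in the female library and none in the male library, against 10.3% and 21.1% of 5922 genes with at least 20 CPM, which *Ier3* did not reach in the differentiating and endocrine classes. In endocrine barcodes these counts were 8 and 1, against 11.6% and 19.5% of 6321 genes, and in mesenchymal barcodes 6 and 2, against 5.93% and 10.8% of 6444 genes. *Fosb* had a male to female ratio of 0.617 (0.575 to 0.662) in differentiating and 0.519 (0.464 to 0.582) in endocrine barcodes.

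The endocrine class differed in makeup, since *Pou1f1* barcodes were 679 of 1417 in the male library and 260 of 405 in the female one. Within *Pou1f1* barcodes 8 members were higher in the female library and none in the male library, against 6.53% and 16% of 6430 genes. Within gonadotroph barcodes, of which the female library held 38, the counts were 4 and 2 against 4.6% and 5.33% of 6586 genes, and the summed ratio of 0.956 (0.912 to 1.002) held equality. *Junb* was higher there in the male library, at 1.54 (1.26 to 1.90), as was *Jund*, at 1.20 (1.08 to 1.34). Sex, pool, dissociation and library cannot be told apart here.

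Other genes of the immediate-early programme were counted from a list of 30, and the shares over all genes are those given above for the members. In differentiating barcodes 8 of 22 tested genes were at least 2-fold below stem in both libraries and 2 were above, with median ratios of 0.567 and 0.635. In endocrine barcodes 10 of 22 were lower and 1 was higher, with medians of 0.404 and 0.534, and in mesenchymal barcodes 12 of 23 were lower and 2 higher, with medians of 0.495 and 0.388. *Klf2*, a Krüppel-like factor, was at 203 and 196 CPM in stem, and its ratio to stem was 0.152 and 0.240 in differentiating but 0.933 and 0.712 in mesenchymal barcodes. *Nr4a1*, an orphan nuclear receptor, was highest in stem barcodes at 169.7 and 179.9 CPM and lowest in mesenchymal ones at 43.4 and 57.4 CPM. The phosphatase gene *Dusp1*, which limits MAP kinase signalling, went the same way, with 433 and 621 CPM in stem and 92.4 and 152 CPM in mesenchymal barcodes.

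Some relatives departed from the members. *Egr3* was 2.68 and 3.71 times the stem level in differentiating barcodes, although *Egr1* was lower there, and was at 7.95 and 2.94 CPM in mesenchymal ones. *Btg2*, an antiproliferative gene, was at 2205 and 2779 CPM in differentiating against 1635 and 1893 CPM in stem barcodes. *Gadd45a*, a growth arrest and DNA damage gene, was above stem in all 3 other classes, at ratios of 4.55 and 2.95 in differentiating, 6.56 and 5.04 in endocrine and 3.93 and 4.30 in mesenchymal barcodes. *Zfp36l1* and *Zfp36l2*, relatives of *Zfp36*, were below their stem level in the other classes, at ratios of 0.124 and 0.144 for *Zfp36l1* and 0.161 and 0.274 for *Zfp36l2* in the endocrine class. Among 12 relatives of the members, whose median ratios to stem lay between 0.642 and 1.01, 2 of 8 tested were higher and 2 lower in differentiating, none of 7 higher and 2 lower in endocrine, and 1 of 8 higher and 3 lower in mesenchymal barcodes.

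Heat-shock genes, another class of stress-induced genes, did not share the order of the members when summed. Their sum over 12 genes was 6521 and 6232 CPM in stem, 8912 and 8956 CPM in differentiating, 7082 and 7277 CPM in endocrine and 5562 and 5194 CPM in mesenchymal barcodes. Differentiating barcodes were thus highest and mesenchymal ones lowest. The sum was led by chaperones that are abundant in most cells, with *Hsp90ab1* at 2699 and 2632 CPM and *Hspa8* at 1250.5 and 1145 CPM in stem barcodes. The inducible *Dnajb1* was at 47.8, 42.9, 33.2 and 33.5 CPM in male and 46.1, 43.2, 36.7 and 35.0 CPM in female stem, differentiating, endocrine and mesenchymal barcodes. Its stem and differentiating intervals overlapped in both libraries. *Hspa1a*, *Hspa1b* and *Hspb1* were instead highest in mesenchymal barcodes. *Hspa1b* was at 5.55 and 7.36 CPM there against 1.41 and 1.55 CPM in stem. *Hspb1* was at 111 and 118 CPM against 73.6 and 108 CPM, with overlapping intervals in the female library. The median ratio to stem of the genes tested was 1.39 and 1.47 in differentiating, 1.01 and 1.11 in endocrine and 0.847 and 0.831 in mesenchymal barcodes. In differentiating barcodes 1 of 10 tested genes (*Hsph1*) was at least 2-fold higher than in stem and 1 (*Hspb1*) lower. In endocrine barcodes 1 of 10 (*Hspb1*) was lower and none was higher, and in mesenchymal barcodes 1 of 11 (*Hspa1a*) was higher and none lower. *Hspa1a* was at 1.74 and 2.03 CPM in stem and 24.8 and 30.2 CPM in mesenchymal barcodes. Of 10 genes that act upstream of the members (serum response factor, its ELK partners, *Creb1* and MAP kinases), 1 of 7 tested was lower in differentiating (*Elk3*), none of 7 differed by 2-fold in endocrine, and 1 of 8 was higher in mesenchymal barcodes (*Mapk14*). Over all genes 11.7%, 11.6% and 11.1% were lower and 4.44%, 7.38% and 11.8% higher in differentiating, endocrine and mesenchymal barcodes. A single gene of lists this short is therefore not set apart from all genes.

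Among stem barcodes the counts of the members were correlated weakly to moderately. Over 1843 male and 1918 female stem barcodes thinned to 5000 UMIs, the median Pearson correlation of the 45 pairs of members was 0.244 and 0.140. The highest values were 0.512 for *Fos* and *Jund* in the male library and 0.373 for *Jun* and *Jund* in the female library. At the other end *Egr1* and *Ier2* had -0.0177 in the female library. The barcodes of a library share its preparation and have the same number of UMIs, and these correlations are a description.

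Genes with the most similar pattern were sought by comparing the 25% of thinned stem barcodes with the highest member share (460 male and 479 female, medians of 2.16% and 1.98%) with the 25% with the lowest (medians of 0.70% and 0.84%). Genes that are not members were ranked by the smaller of the ratios in the male and female library. The leading 10 were *Klf4* (6.10 and 4.04), *Klf2* (6.33 and 3.70), *Klf6* (3.88 and 2.90), *Ppp1r15a* (4.25 and 2.89), *Cldn4* (3.19 and 2.72), *Irf1* (2.66 and 3.00), *Gm26532* (4.60 and 2.61), *Socs3* (4.70 and 2.55), *Isg15* (2.41 and 2.41) and *Bhlhe40* (2.64 and 2.30). Of these, *Klf4*, *Klf2*, *Klf6*, *Ppp1r15a* and *Socs3* were on the list of other immediate-early genes. *Ppp1r15a* encodes a stress-induced phosphatase subunit, *Socs3* a feedback inhibitor of cytokine signalling, *Irf1* and *Isg15* belong to the interferon response, and *Cldn4* is a tight junction claudin. A ratio of at least 2 in both libraries was found for 20 of 5862 genes that are not members (0.341%), for 8 of the 21 other immediate-early genes measured and for 0 of 10 heat-shock genes. The high group was shallower, with medians of 9993 and 8981 UMIs before thinning against 13409 and 11014.

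Mitotic genes stood at the opposite end, which was noticed after their values were seen. The ratio of the high to the low group was 0.0968 and 0.0769 for *Ccnb1*, a mitotic cyclin, 0.0880 and 0.113 for *Cenpa*, a centromeric histone, and 0.149 and 0.110 for *Cdc20*, an activator of anaphase. To give the sizes of this same association from the other side, thinned stem barcodes were divided by UMIs of 10 mitotic and 10 replication genes. With no UMI of either list (632 male and 798 female barcodes) the summed members were at 15259.8 and 14741 CPM. With at least 3 replication UMIs and no mitotic UMI (273 and 233) they were at 14294 and 13757 CPM, a ratio of 0.937 (0.915 to 0.959) and 0.933 (0.911 to 0.956). With at least 10 mitotic UMIs (181 and 114) they were at 9997 and 10009 CPM, a ratio of 0.655 (0.636 to 0.675) and 0.679 (0.656 to 0.703).

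The gap was wider for some members than for others. Relative to barcodes with no UMI of either list, *Zfp36* was at 0.458 (0.362 to 0.577) and 0.450 (0.345 to 0.581) in barcodes with at least 10 mitotic UMIs, and *Atf3* at 0.553 (0.455 to 0.669) and 0.493 (0.401 to 0.603). *Fosb* was at 0.768 (0.632 to 0.931) and 0.778 (0.639 to 0.944), and *Fos* at 0.659 (0.626 to 0.693) and 0.716 (0.675 to 0.759). All 10 members were lower beyond counting error in both libraries, against 5.85% of 6171 genes, a criterion that abundant genes meet more readily. The lowest stem group, at 9997 CPM in the male library, was above the whole endocrine class at 6034 CPM.

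**Figure D5:**
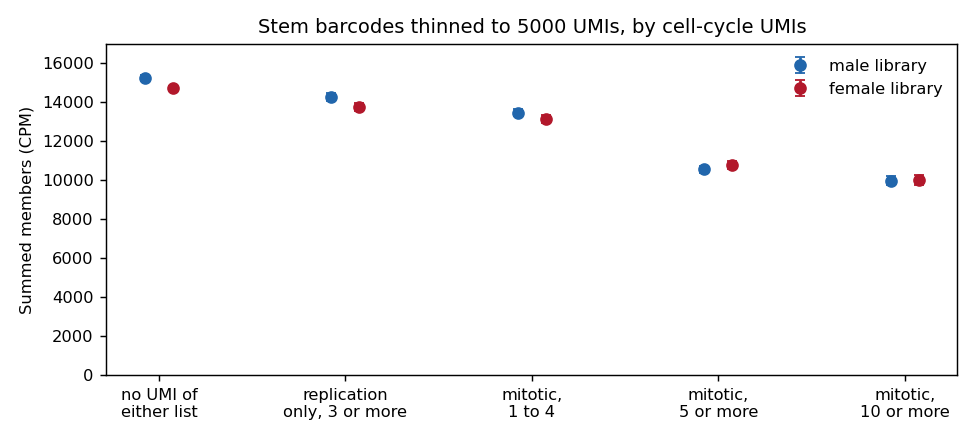
Summed level of the 10 members (y axis, CPM) in stem barcodes thinned to 5000 UMIs, grouped by UMIs of replication and mitotic genes (x axis), for the male (blue) and female (red) library, with Poisson 95% intervals. The group with 10 or more mitotic UMIs is part of the group with 5 or more, and the level runs from 15259.8 and 14741 CPM on the left to 9997 and 10009 CPM on the right.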

How the data were processed

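The authors sequenced both libraries with the 10x Genomics 3′ chemistry and deposited UMI counts per gene and barcode, made with Cell Ranger 3.0.2 against mm10 with the reporter sequence added. Strand, antisense partners and gene positions were taken from GENCODE vM21, and promoters from RefSeq GRCm38.p6. From the counts, barcodes with fewer than 50 genes or a mitochondrial share over the mean plus 3 SD were removed, which took 159 male and 85 female barcodes.

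The members, lists and splits were chosen with earlier results of these data known. Classes were set on raw UMIs, namely at least 2 of Sox2 and 1 of Sox9 (stem), at least 1 of Lef1 and 3 over 5 progenitor genes (differentiating), 2 of Pou1f1, or 20 of Cga or 50 of Pomc with a lineage gene (endocrine), and 10 over 6 genes from at least 3 of them (mesenchymal). Barcodes were mixed if they met the mesenchymal rule with any other, several endocrine rules, or an endocrine and the stem rule without Lef1. Other barcodes meeting an endocrine rule were called endocrine, and those meeting both the differentiating and the stem rule were called differentiating. UMIs were summed by class and scaled to CPM, with exact Poisson 95% intervals (conservative for ratios) and exact binomial intervals for shares. Intervals cover counting error only. A gene was called beyond counting error where the interval of its ratio left out equality. Genes named as most like the members were the 10 others with the highest smaller library ratio among genes with at least 20 CPM in stem barcodes. No doublets were removed except in an alternative (Scrublet in scanpy 1.11.5). The cycling, Fos, Mfap5 and mitotic alternatives were chosen after the data were seen. The computations used Python 3.11.15, numpy 2.4.6, scipy 1.17.1 and pandas 2.3.3, and the counting routines were tested on simulated data.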

Additional observations from a re-analysis of the deposited data

How the results depend on the processing

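The order of the summed members, stem over mesenchymal over differentiating over endocrine, was the same in both libraries under all 11 settings. Within depth bins, which were not among these settings, only the place of stem barcodes was fixed, as given above. Of 77 values checked, 42 moved and none reversed. They comprise the summed ratios to stem, the number of classes with the higher summed level in the female library, and the thinned shares for Atf3 and Ier3. A ratio was counted as moved when it left its interval given above. Among the ratios of single members to stem, 169 of 594 values moved and none reversed. Values are given for differentiating, endocrine and mesenchymal barcodes in that order where all moved. With every marker minimum doubled the male ratios were 0.542 in differentiating and 0.461 in endocrine barcodes, and the female ones 0.646, 0.574 and 0.717. Removing cycling barcodes gave 0.521, 0.399 and 0.646 in the male and 0.638, 0.549 and 0.675 in the female library. Averaging the shares of barcodes gave 0.563 in male differentiating and 0.721 in male mesenchymal barcodes, and 0.667, 0.600 and 0.753 in the female library. Removing the highest Scrublet scores gave 0.563 and 0.419 in male differentiating and endocrine barcodes and 0.658 in female differentiating ones, and left 2 in place of 4 classes with the higher summed level in the female library. Scaling by median-of-ratios gave 0.569 in male differentiating barcodes, and 0.718 and 0.749 in male and female mesenchymal ones. Leaving Fos out of the sum gave 0.447 and 0.735 in male endocrine and mesenchymal barcodes, and 0.666 and 0.717 in female differentiating and mesenchymal ones. Placing mixed barcodes by precedence gave 0.482 and 0.708 in male, and 0.580 and 0.731 in female endocrine and mesenchymal barcodes. A total without hormone, collagen and mitochondrial genes gave 0.477 and 0.607 in male and female endocrine barcodes. Keeping barcodes with at least 5000 UMIs gave 0.684 and 0.685 in mesenchymal ones. Thinning to 2000 UMIs lowered the share of barcodes with an Atf3 UMI to 33.6% and 41.3% in male and female stem and 2.88% in female mesenchymal barcodes, and that with an Ier3 UMI to 4.29% and 5.39% in stem and 36.2% and 45.2% in mesenchymal barcodes. The cause of these shifts was not tested.

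No paired analysis was possible because the labels give 1 library per sex and no replicate numbers, and for the same reason no library was left out in turn. A minority of stem and few differentiating barcodes held an Ier3 UMI, and few mesenchymal ones an Atf3 UMI, so that depth limits these shares.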
